A study of Mus musculus with 33 samples.

Results

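The genes described here were sorted by how microglia, the resident macrophages of the brain, responded to the loss of either of a pair of transcription factors, Irf8 and Batf3. For each gene the effect of Irf8 loss at 3 months of age (IRF8KO minus its wild type, log2) was set against the effect of Batf3 loss at the same age (Batf3KO minus its own wild type), and the second was subtracted from the first. Of 54146 genes listed, 9426 reached a mean of 5 CPM, reads of the gene for each 1e6 counted in the library, in the wild type of the Batf3 experiment, and 9192 of these also passed the filter on low counts in the Irf8 experiment and were sorted. An effect or a difference was called when its adjusted p in edgeR's quasi-likelihood test was under 0.05. A gene was sorted as moved alike when both effects were called with the same sign and their difference was not, as Irf8 only when the Irf8 effect and the difference were called and the Batf3 effect was not, and as Batf3 only in the mirror case. The classes were chosen by these 3-month effects and their difference, so those effects are given as a description and not as tests.

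The labels gave all animals as female C57BL/6 mice. The Irf8 experiment held 4 wild-type and 4 IRF8KO libraries, and the Batf3 experiment held 3 wild-type and 3 Batf3KO libraries, all at 3 months. Libraries the sorting did not use came from 4 groups of 3 at 9 months: wild type, IRF8KO, 5xFAD (a transgenic Alzheimer's disease model) and 5xFAD/IRF8KO. A further set at 3 months held 3 libraries of IRF8flox mice without Cre and 4 with Cx3cr1CreERT2, in which Cre is driven by the Cx3cr1 gene, tamoxifen was given for 5 days from postnatal day 12 and YFP-positive cells were sorted. In IRF8KO and Batf3KO the factor is missing from every cell of the body, so the sorted cells come from animals whose other blood lineages lack it too. Nothing in the labels ties libraries to separate animals, so p-values measure the spread between libraries only. The 2 experiments had no library in common and each had its own wild type, so a difference between experiments is tied to any difference in how they were prepared and these cannot be told apart.

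Irf8 and Batf3 belong to transcription factor families that act together. IRF8 binds DNA weakly alone and gains affinity through partners: with PU.1 (Spi1) at composite Ets-IRF elements (EICE), with BATF-family and other AP-1 factors at AP-1-IRF composite elements (AICE), and with interferon-induced factors at interferon-stimulated response elements (ISRE). In microglia IRF8 is known as a factor of lineage identity and of the reactive state, and its loss in myeloid progenitors shifts output towards neutrophils. BATF3 is a small basic leucine zipper factor best known from type 1 conventional dendritic cells, in which it sustains Irf8 expression.

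Counts in genes ran from 2305663 to 16697746 per wild-type library and 5957998 to 13070110 per IRF8KO library of the Irf8 experiment, and from 12939530 to 18357762 in the Batf3 experiment. The experiments differed in what else the libraries held. The summed share of 15 neutrophil markers was 0.867 to 5.4% in the wild type and 7.75 to 16.7% in IRF8KO, against at most 0.000516% in any library of the Batf3 experiment, and none of those markers was among the sorted genes. The summed share of 10 monocyte markers was 0.049 to 0.259% and 0.603 to 1.42% in the Irf8 experiment and at most 0.00111% in the Batf3 experiment, and again none was sorted. Red blood cell markers took 3.08 to 10.3% of the wild type and 0.914 to 9.05% of IRF8KO, against at most 0.0222% in the Batf3 experiment. Oligodendrocyte markers took 0.555 to 6.34% and 0.325 to 3.73%, against at most 0.0528%. Homeostatic microglial genes took 8.14 to 17.1% of the wild type and 2.09 to 3.69% of IRF8KO, and 17 to 17.7% of both groups of the Batf3 experiment. Reads of 4 Y-linked genes summed to 7.81 to 107 CPM in the wild type and 118 to 161 CPM in IRF8KO of the Irf8 experiment and to 0 in the Batf3 experiment. Xist, an RNA of the inactive X chromosome, stood at 0.779 to 6.07 CPM in that wild type and at 0 in every IRF8KO library. In the Batf3 experiment Xist stood at 80 to 113 CPM in the wild type and 119 to 175 CPM in Batf3KO. The label of female thus does not hold for the Irf8 experiment, above all for IRF8KO. Sex-linked reads split by experiment, so sex and experiment cannot be told apart in the difference of effects. The part of these other cells and of sex in the Irf8 effects was not tested, and in bulk libraries fewer cells of a type and less RNA per cell cannot be told apart. The median standard error over all sorted genes was 0.137 for the Batf3 effect and 0.487 for the Irf8 effect.

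The targeted genes were checked in every library first. Irf8 reads stood at 312, 234, 232 and 251 CPM in the wild type and at 100, 95.7, 169 and 130 CPM in IRF8KO, without overlap, as was seen for 20% of sorted genes in the Irf8 experiment and 24.5% in the Batf3 experiment. The Irf8 effect on Irf8 itself was -1.12 ± 0.299 (log2 ± SE, 4 against 4), so part of its transcript was still counted in IRF8KO. In the Batf3 experiment Irf8 stood at 1040, 964 and 846 CPM in the wild type and at 855, 819 and 927 CPM in Batf3KO. Those groups overlapped, and the Batf3 effect on Irf8 was -0.08 ± 0.0736 (adjusted p = 0.636). Batf3, by contrast, was nearly emptied in both knockouts, as described with the genes moved alike.

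More sorted genes were called for Irf8 loss than for Batf3 loss, and few were called in both. The Irf8 effect was called for 691 of 9192 genes (7.52%), 371 higher (4.04%) and 320 lower (3.48%), and the Batf3 effect for 403 (4.38%), 159 higher (1.73%) and 244 lower (2.65%). The 55 genes called in both made up 7.96% of the Irf8 calls and 13.6% of the Batf3 calls, and 33 of them moved the same way in both losses. The sign was the same for 47.7% of all sorted genes and 51.6% of the Batf3 calls. Across all sorted genes the 2 effects were nearly uncorrelated (Pearson r = 0.0316, Spearman rho = -0.0427). The difference of effects was called for 434 genes (4.72%), with the Irf8 effect the higher one in 270 (2.94%) and the lower one in 164 (1.78%). With 1 spread shared by all 14 libraries the Irf8 effect was called for 2029 genes and the Batf3 effect for 9. The split of the differences turned with the scaling: with DESeq2-type size factors 180 differences were higher and 211 lower, and the median difference over all sorted genes was 0.01 in place of 0.19. The sorting gave 23 genes moved alike (0.25%), 10 moved the same way but by different amounts (0.109%), 22 moved in opposite directions (0.239%), 348 Irf8 only (3.79%) and 27 Batf3 only (0.294%). The rest were 288 genes called for Irf8 loss (3.13%) and 321 called for Batf3 loss (3.49%) without a called difference, 28 with a called difference alone (0.305%), and 8125 (88.4%) with no call.

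**Figure D1:**
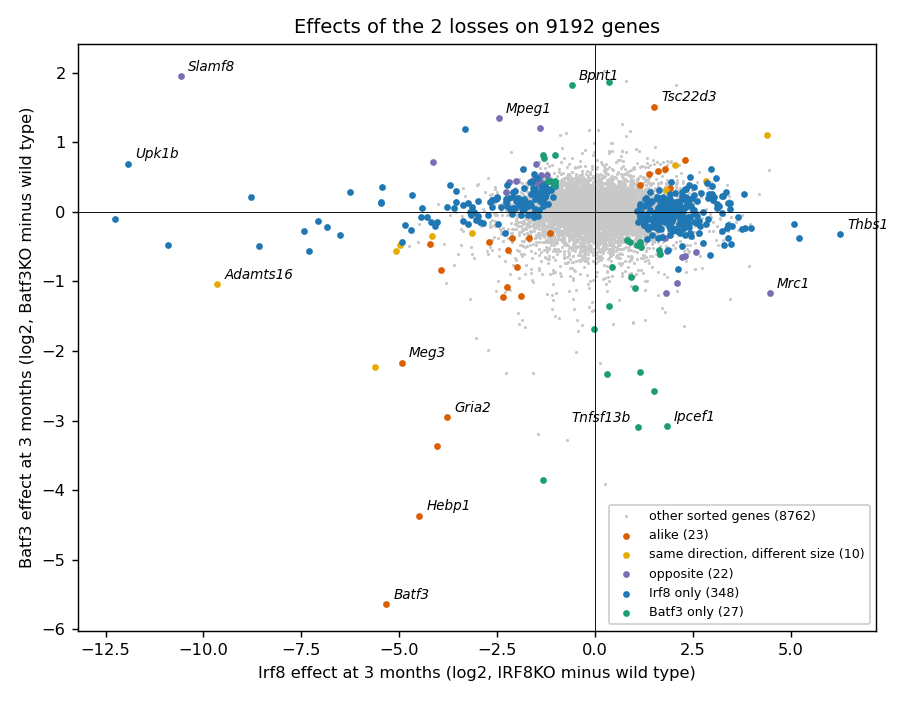
Irf8 effect (x axis) against Batf3 effect (y axis) at 3 months, both log2, for the 9192 sorted genes, with colours for the classes. The 23 genes moved alike lie in the lower left and upper right, and the 348 Irf8 only genes lie along the horizontal axis. Most Batf3 only genes lie off the vertical axis: 18 of 27 had an Irf8 effect over 1 in size. The median Irf8 effect was 1.05 for the 18 lower ones and -1.03 for the 9 higher ones.

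The thresholds cut through a continuum. Just inside the level limit were Gm43858 and Bcan at 5.001 and 5.003 CPM, and just outside were Klrg2 and Tmem17 at 4.999 and 4.994 CPM. Just inside and outside the call were Smarcc2 (adjusted p = 0.04997) and Loxl3 (0.05014) for the Irf8 effect, Mical1 (0.04959) and Pgghg (0.05059) for the Batf3 effect, and AI413582 (0.04933) and Sap130 (0.05016) for the difference, all by edgeR. Calls and class sizes moved with single libraries. Leaving out 1 IRF8KO library left 206 to 334 Irf8 calls, and leaving out 1 library of the Batf3 experiment gave 166 to 491 Batf3 calls. Leaving out 1 library of the Batf3 experiment at a time left 112 to 136 Irf8 only genes, leaving out 1 IRF8KO library left 150 to 245, and leaving out wild-type replicate 3 or 4 of the Irf8 experiment gave 557 or 655. Over the 14 omissions 83 of the 348 Irf8 only genes kept their class each time, as did 4 of 23 alike, 2 of 10 same-direction, 2 of 22 opposite and 4 of 27 Batf3 only genes.

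Batf3 itself was the lowest of the genes moved alike. It stood at 65.6, 27.5, 18.3 and 23 CPM in the wild type of the Irf8 experiment and at 1.91, 0, 1.14 and 0.336 CPM in IRF8KO. In the Batf3 experiment it stood at 22.3, 24.9 and 20.9 CPM and at 0.46, 0.387 and 0.452 CPM in Batf3KO. Neither pair of groups overlapped, and the effects were -5.33 ± 0.892 and -5.64 ± 0.233 (SE), with a difference of 0.44 (95% interval -1.56 to 2.44). Irf8 loss thus left Batf3 transcript at about the level of the Batf3 knockout, while the Irf8 levels of Batf3KO and its wild type overlapped. In libraries the sorting did not use, Batf3 was at 0 in all 3 IRF8KO and all 3 5xFAD/IRF8KO libraries at 9 months, against 17 to 21.4 CPM in wild type (adjusted p = 0.00051) and 24.4 to 28.1 CPM in 5xFAD (adjusted p = 0.000347).

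The other alike genes that were lower numbered 15, with a class median of -2.52 for Irf8 loss and -0.96 for Batf3 loss. Hebp1, a heme-binding protein gene, had near-equal effects of -4.49 ± 0.608 and -4.37 ± 0.139. Its wild-type libraries stood at 153, 72.6, 39.4 and 38.5 CPM against 2.78, 5.35, 1.74 and 4.36 CPM in IRF8KO, and at 136, 132 and 112 CPM against 6.67, 6.25 and 4.82 CPM in Batf3KO. The groups were far apart in both experiments, but Hebp1 shares exonic sequence with Fam234b, and reads of overlapping genes cannot be told apart without strand. Outside these experiments the gene was uneven: it stood at 1.99 to 4.85 CPM in wild type at 9 months, 36.7 to 67.1 CPM in 5xFAD, and 3.35 to 5.27 CPM in 6 of the 7 conditional libraries with 156 CPM in the seventh.

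Several members that fell in both losses are known from neurons, and were grouped after their values were seen. Of 13 neuron markers listed, 3 were sorted: Snhg11 and Meg3 were called lower in both losses, and Camk2a in neither (-0.55, adjusted p = 0.589, and -0.95, adjusted p = 0.0802). Snhg11 and Meg3 (long noncoding RNAs abundant in neurons), Gria2 (a glutamate receptor subunit) and Bsn (a presynaptic scaffold) were moved alike, and Grin2b (an NMDA receptor subunit) fell in both by different amounts. Snhg11 went from 60.5 to 293 CPM in the wild type to 6.54 to 15.5 CPM in IRF8KO, and from 6.65, 8.2 and 4.93 CPM to 0.46, 0.553 and 0.804 CPM in Batf3KO. Gria2 went from 42.6 to 119 CPM to 3.03 to 9.9 CPM and from 9.95, 11.3 and 2.97 CPM to 0.805, 0.609 and 1.56 CPM. Both kept their class in all 14 omissions, while Meg3 kept it in 12 and Bsn in 10. The summed share of the 13 neuron markers counts Snhg11 and Meg3 themselves, so it is not a separate reading. It was 0.0838 to 0.186% in the wild type and 0.0118 to 0.0558% in IRF8KO, and 0.006 to 0.00893% and 0.00175 to 0.00233% in the Batf3 experiment. At 9 months the same transcripts were called in the other direction. Snhg11 stood at 0 to 0.306 CPM in wild type and 148 to 181 CPM in IRF8KO (effect 9.53, adjusted p = 8.84e-06), and Gria2 at 0 to 0.153 CPM and 90.9 to 154 CPM (effect 10.11, adjusted p = 9.22e-06). The neuron marker share there was 0.000782 to 0.000991% in wild type and 0.181 to 0.436% in IRF8KO, and the part of neuronal RNA in these genes was not tested.

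The remaining alike genes that were lower had larger Irf8 than Batf3 effects. The calls favour this order, since the smallest change called was 1 for Irf8 loss and 0.266 for Batf3 loss. Lpl, the lipoprotein lipase of the disease-associated state, stood at 35.1 to 64.7 CPM in the wild type and 3.63 to 19.6 CPM in IRF8KO, and at 23.8, 30.3 and 17.9 CPM against 14.5, 9.91 and 8.44 CPM in Batf3KO. Its effects were -2.25 ± 0.49 and -1.08 ± 0.225, and it kept its class in 10 of 14 omissions. F11r, a junctional adhesion molecule, had effects of -1.98 and -0.8 and kept its class in 13 of 14 omissions. P2ry13, a purinergic receptor of resting microglia, had effects of -1.68 and -0.37, and Ccl9, a chemokine, -2.7 and -0.43. Slamf9, a SLAM-family receptor, kept its class in only 1 of 14 omissions. Of the 22 genes that fell in both losses, by like or different amounts, 13 were also called lower in 5xFAD/IRF8KO against 5xFAD and 6 were called higher, against 10.5% and 10.6% of all sorted genes.

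The 7 alike genes that rose included known targets of the glucocorticoid receptor. Tsc22d3 (GILZ), a glucocorticoid-induced leucine zipper, stood at 429, 611, 406 and 228 CPM in the wild type and at 1220, 1260, 1100 and 1430 CPM in IRF8KO. In the Batf3 experiment it went from 111, 135 and 116 CPM to 333, 295 and 364 CPM. The effects were nearly equal at 1.52 ± 0.363 and 1.51 ± 0.0998, with a difference of 0.12 (95% interval -0.69 to 0.94). The gene lost the class on leaving out any 1 of the 4 IRF8KO libraries. Fkbp5, a co-chaperone of the same receptor, had effects of 2.29 ± 0.456 and 0.75 ± 0.138 and kept its class in 12 of 14 omissions. At 9 months Tsc22d3 was again higher in IRF8KO (1.78, adjusted p = 0.00145), while Fkbp5 gave -0.1 (adjusted p = 0.929).

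Other alike genes that rose included Dusp6 (an ERK phosphatase, 1.14 ± 0.31 and 0.38 ± 0.0733), Cdk17 (a kinase, 1.62 ± 0.36 and 0.59 ± 0.139), Tnfrsf11a (the RANK receptor, 1.91 and 0.35) and Slfn2. They kept their class in 5 to 9 of 14 omissions. Slfn2, an interferon-inducible Schlafen gene, stood at 59.7 to 293 CPM in the wild type and 476 to 741 CPM in IRF8KO, and at 69.7, 64.5 and 49.7 CPM against 80.2, 77.5 and 113 CPM in Batf3KO. It was also higher in IRF8KO at 9 months (3.56, adjusted p = 6.85e-05) and within 5xFAD (3.16, adjusted p = 0.000138). Its promoter window holds an EICE, shown in capitals here because IRF8 is known to bind such elements with PU.1 and the gene rose in both losses. The stretch is chr11:83065032-83065091 on the plus strand of GRCm38.p6 (RefSeq), 80 to 21 bases before the gene start.
Slfn2: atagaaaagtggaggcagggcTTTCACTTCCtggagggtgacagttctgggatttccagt

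In the 10 genes that moved the same way by different amounts the Irf8 effect was the larger in each. The calls left little room for the reverse. The smallest change called among sorted genes was 1 for Irf8 loss, 0.266 for Batf3 loss and 1.1 for the difference. Of the 403 Batf3 calls, 80 were over 1 in size. Adamts16, a secreted protease, stood at 10.9, 10.9, 9.05 and 16.4 CPM in the wild type and at 0 in all 4 IRF8KO libraries, at least 119-fold lower when 3 counts over the group are taken as the floor. Batf3 loss lowered it from 47.1, 41.7 and 42.9 CPM to 17.4, 20.4 and 23.8 CPM (-1.04 ± 0.132). Gm10790 went from 88.4 to 149 CPM to 2.61 to 7.21 CPM, and from 256, 249 and 263 CPM to 171, 189 and 173 CPM. Both kept their class in all 14 omissions. Tlr12, a Toll-like receptor, gave -5.07 ± 1.39 and -0.57 ± 0.102, Plxdc2, a plexin-domain receptor, -4.16 ± 0.719 and -0.35 ± 0.0651, and Ctsh, the lysosomal cathepsin H, -3.15 ± 0.467 and -0.3 ± 0.0651. The 4 that rose were Alox5 (5-lipoxygenase), Htra3 (a serine protease), Ncf1 (a subunit of the phagocyte oxidase) and Nuak2 (a kinase), with a median of 2.44 for Irf8 loss and 0.56 for Batf3 loss.

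Clec7a, a phagocytic receptor of the disease-associated state, was outside the sorting because its wild-type level in the Batf3 experiment was 1.94, 1.3 and 2.84 CPM. It nevertheless rose in both losses, to 14.1, 13.6 and 12.6 CPM in Batf3KO and from 13.3 to 37.3 CPM to 182 to 220 CPM in IRF8KO. The effects were 2.79 (adjusted p = 4.88e-05) and 2.93 (adjusted p = 0.00249), with a difference of 0.27. It was named among the genes of that state and not by its change.

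Genes that the losses moved in opposite directions were led by Slamf8, a SLAM-family receptor of phagocytes. It stood at 21.7, 39.1, 22.8 and 5.69 CPM in the wild type of the Irf8 experiment and at 0 in all 4 IRF8KO libraries, at least 224-fold lower. In the Batf3 experiment it went from 53.9, 52.5 and 52.1 CPM to 189, 198 and 203 CPM, an effect of 1.95 ± 0.0815. The libraries overlapped in neither experiment, and the class was kept in all 14 omissions. At 9 months Slamf8 was again lower with Irf8 loss, with an effect of -4.67 (adjusted p = 0.0348), and within 5xFAD with an effect of -12.53 (adjusted p = 0.00267). Slamf8 lies 18.516 Mb from Batf3 on chromosome 1, in the window described with position, and the part of linked sequence in its Batf3 effect was not tested. Its promoter is shown because the gene was lost without Irf8: the 100 bases before the gene start, chr1:172590569-172590668 on the minus strand of GRCm38.p6 (RefSeq), with the ISRE core in capitals.
Slamf8: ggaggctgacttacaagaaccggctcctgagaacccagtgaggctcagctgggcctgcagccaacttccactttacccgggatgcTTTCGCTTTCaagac

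Mpeg1 (perforin-2, a pore-forming protein of macrophages) behaved likewise and lies on another chromosome. It stood at 98.2, 101, 53 and 102 CPM in the wild type and at 9.21, 24.6, 21.9 and 10.7 CPM in IRF8KO, and went from 166, 141 and 100 CPM to 351, 330 and 314 CPM in Batf3KO. The effects were -2.46 ± 0.431 and 1.35 ± 0.13, and the class was kept in all 14 omissions. The 9-month Irf8 effects were -2.74 (adjusted p = 0.0041) and, within 5xFAD, -3.77 (adjusted p = 0.000705). Ccl4, a chemokine, fell from 86.6 to 163 CPM to 0 to 23.3 CPM in IRF8KO and rose from 31.3, 34.6 and 21.9 CPM to 45.6, 40 and 53.8 CPM in Batf3KO. It kept the class in 8 of 14 omissions. Ifi30, the lysosomal thiol reductase of antigen processing, gave -2.02 ± 0.491 and 0.45 ± 0.0913. The 14 genes of this kind, among them Tmem173 (STING) and Glul (glutamine synthetase), had medians of -1.54 and 0.49.

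The reverse pattern, higher without Irf8 and lower without Batf3, was found in 8 genes, with Irf8 effects from 1.78 to 4.47 and Batf3 effects from -1.17 to -0.37. Mrc1 (CD206, the mannose receptor of brain border macrophages) stood at 6.2, 7.75, 19.3 and 6.54 CPM in the wild type and at 254, 181, 250 and 246 CPM in IRF8KO. It went from 6.42, 10.3 and 7.36 CPM to 2.7, 4.43 and 3.16 CPM in Batf3KO. The groups did not overlap in either experiment, and the class was lost without any 1 of 3 libraries of the Batf3 experiment (wild-type replicate 2, Batf3KO replicates 1 and 3). The summed share of 12 border-macrophage markers, with Mrc1 and Stab1 among them, was 0.00833 to 0.0341% in the wild type and 0.122 to 0.175% in IRF8KO. In the Batf3 experiment it was 0.0667 to 0.0831% and 0.0778 to 0.082%, with Stab1 alone at a mean of 730 CPM in that wild type. The share counts Mrc1 itself and is not a separate reading, and the part of border macrophages in Mrc1 was not tested. Csf3r, the G-CSF receptor of neutrophils, and Tnfaip2 were of the same class. Of the 22 opposite genes, 8 (36.4%) were called in their 3-month Irf8 direction at 9 months and 3 (13.6%) in the other, against 11.5% and 10.8% of all sorted genes. Within 5xFAD these were 11 (50%) and 1 (4.55%), against 16.7% and 4.49%.

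**Figure D2:**
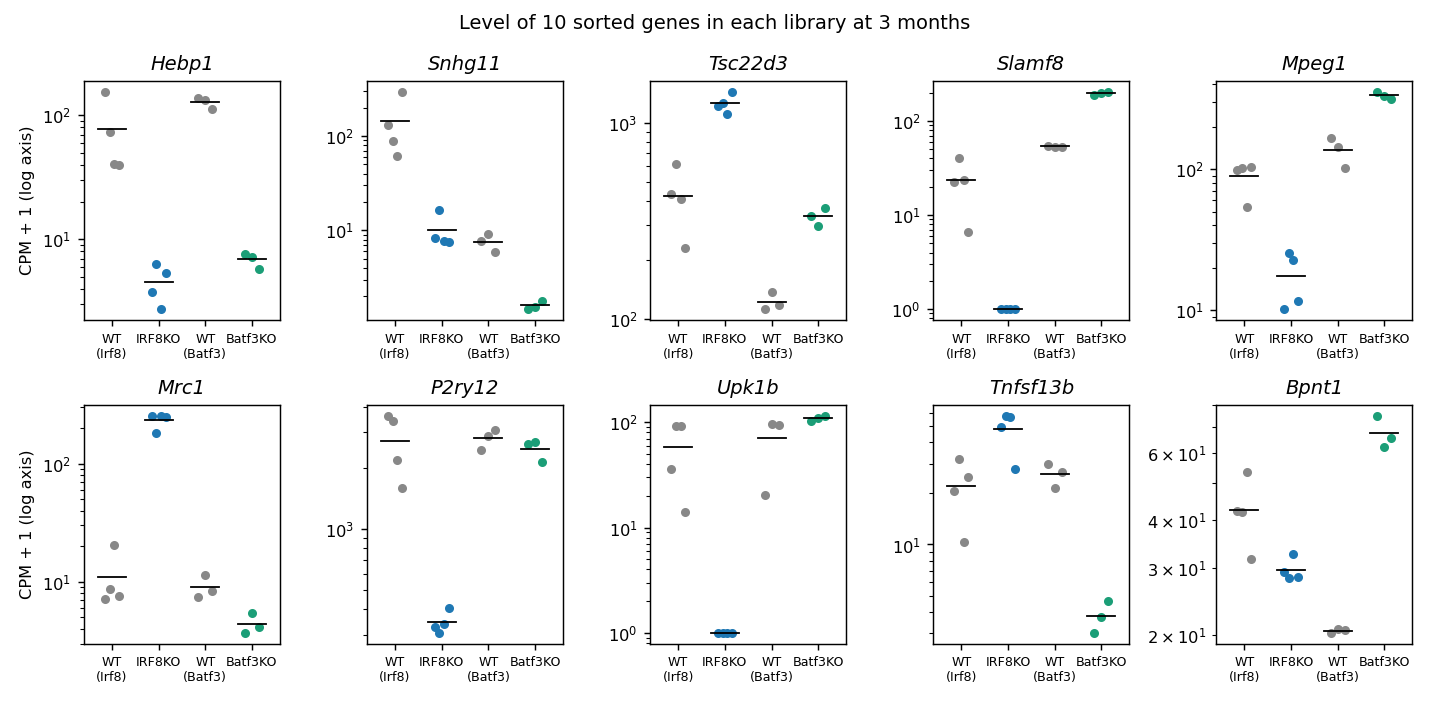
CPM plus 1 on a log axis in each 3-month library for 10 sorted genes, with grey points for wild type, blue for IRF8KO and green for Batf3KO, and bars at group means. Hebp1 and Snhg11 fall in both knockouts, Slamf8 is at 0 in the 4 IRF8KO libraries and at 189 to 203 CPM in Batf3KO, and P2ry12 falls in IRF8KO alone among the groups drawn.

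The Irf8 only class held 348 genes, 219 higher and 129 lower (62.9% higher). With DESeq2-type size factors it held 154 higher and 167 lower (48% higher), so the excess of higher genes depends on the scaling. The lower genes had a median Irf8 effect of -2.08 beside a Batf3 effect of 0.14, and the higher genes 1.97 beside -0.02. Over all sorted genes these medians were 0.07 and 0.01.

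The 6 lower genes with the largest differences of effects were at 0 or near it in IRF8KO. Spint1, a protease inhibitor of the cell surface, stood at 86.3, 97.1, 69.9 and 37.4 CPM in the wild type and at 0 in all 4 IRF8KO libraries, at least 730-fold lower, and at 419, 381 and 353 CPM against 330, 323 and 380 CPM in the Batf3 experiment. Upk1b (uroplakin 1B, a tetraspanin) stood at 34.6, 90.4, 90.8 and 13.1 CPM and then at 0 in all 4, at least 575-fold lower, against 19.4 to 95.6 CPM and 101 to 115 CPM. Tnfrsf17 (BCMA), the receptor for the cytokines BAFF and APRIL, stood at 57.9, 20.2, 16.7 and 17.5 CPM and then at 0, at least 282-fold lower. In the Batf3 experiment it stood at 30.4, 31.2 and 32.8 CPM against 18.3, 23.1 and 24 CPM. These 3 genes were thus at 0 in every IRF8KO library and well above 0 in every Batf3KO library. Sarm1 and Gm3739 were also at 0, at least 65.7-fold and 55.9-fold lower, and Klk8, a serine protease, went from 30.5 to 112 CPM to 0 to 1.51 CPM. At 9 months Spint1, Upk1b and Tnfrsf17 were lower again without Irf8 (adjusted p = 0.000406, 1.15e-05 and 0.000343), while Sarm1 gave -0.06 (adjusted p = 0.986).

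Microglial genes of known function formed another part of the lower class. Aif1 (IBA1, an actin-binding protein used to stain microglia) stood at 1160, 664, 409 and 1310 CPM in the wild type and at 18.9, 43.6, 26.9 and 54 CPM in IRF8KO, and at 271, 252 and 213 CPM against 278, 282 and 274 CPM in the Batf3 experiment. Ly86 (MD-1), a partner of the receptor RP105, stood at 786 to 1990 CPM and 2.48 to 16.3 CPM, and at 779 to 823 CPM against 659 to 754 CPM. P2ry12, the ADP receptor of resting microglia, stood at 3620, 3400, 2180 and 1580 CPM against 327, 306, 337 and 406 CPM, and at 2450, 2870 and 3070 CPM against 2620, 2680 and 2140 CPM. All 3 kept the class in all 14 omissions, as did Slc2a5 (the fructose transporter GLUT5, -3.2 ± 0.401), Bin1 (a membrane-curving adaptor) and Rgs10 (a regulator of G-protein signalling). Their Batf3 effects were small: 0.24 ± 0.0827 for Aif1, -0.13 ± 0.0727 for Ly86, -0.12 ± 0.106 for P2ry12 and 0 ± 0.062 for Slc2a5. Sall1, a zinc-finger factor of microglial identity, gave -4.85 ± 1.15 and -0.19 ± 0.0798, but kept the class in 6 of 14 omissions.

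The promoters of 3 of these lower genes are shown because each holds an ISRE core, the IRF element found most often in that class. They are chr17:35176173-35176222 on the minus strand for Aif1 (170 to 121 bases before the gene start), chr3:95526726-95526785 on the plus strand for Ctss (60 to 1 bases before) and chr16:11313689-11313748 on the plus strand for Tnfrsf17 (120 to 61 bases before), all GRCm38.p6 from RefSeq, with the ISRE core in capitals.
Aif1: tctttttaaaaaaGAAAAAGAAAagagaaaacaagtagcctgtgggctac
Ctss: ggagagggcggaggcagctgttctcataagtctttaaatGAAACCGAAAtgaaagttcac
Tnfrsf17: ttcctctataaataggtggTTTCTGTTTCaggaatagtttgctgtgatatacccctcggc

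The higher Irf8 only genes were led by Thbs1 (thrombospondin 1, a secreted matrix protein). It stood at 1.03, 0, 0.302 and 10.1 CPM in the wild type and at 250, 200, 271 and 193 CPM in IRF8KO, against 15.5, 16.1 and 14.9 CPM and 13.7, 9.02 and 13.2 CPM in the Batf3 experiment. Lbr, the lamin B receptor, went from 8.27 to 54.1 CPM to 256 to 481 CPM and stayed within 38.4 to 56.5 CPM in the Batf3 experiment. Ero1l, an oxidase of the endoplasmic reticulum, went from 2.53 to 12.5 CPM to 76.5 to 151 CPM. These 3 genes and Itgb2, Tlr13, Lcp1, Dock2, Flna and Ifnar1 kept the class in all 14 omissions. Lbr, Itgb2 and Lcp1 are also known from neutrophils, whose markers rose in the same libraries. Apoe, the apolipoprotein of the disease-associated state, stood at 3470 to 11700 CPM and 45700 to 68500 CPM (2.92 ± 0.598), and at 727, 695 and 513 CPM against 682, 793 and 747 CPM (0.26 ± 0.102). Its class was lost without Batf3KO replicate 1. Pidd1, Abcg3 and Ncapd2 had Irf8 effects of 5.21, 5.09 and 4, between those of Thbs1 (6.26) and Lbr (3.84), but kept the class in 1, 8 and 8 of 14 omissions.

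The 27 Batf3 only genes had to differ between the losses, so most showed an Irf8 effect of the other sign short of a call. The 18 lower ones had medians of -1.01 for Batf3 loss and 1.05 for Irf8 loss, and the 9 higher ones 0.77 and -1.03. Tnfsf13b (BAFF), the B-cell survival cytokine and ligand of BCMA, stood at 29, 20.4 and 25.9 CPM in the wild type and 2.01, 2.71 and 3.67 CPM in Batf3KO (-3.1 ± 0.225). In the Irf8 experiment it stood at 19.6, 31.1, 9.41 and 24.2 CPM against 48.6, 56.6, 55.2 and 27 CPM (1.09 ± 0.445), with overlap. It kept the class in all 14 omissions. The receptor gene Tnfrsf17 was thus lost without Irf8 and the ligand gene Tnfsf13b lowered without Batf3; Tnfrsf17 had a Batf3 effect of -0.48 ± 0.139 that missed the threshold (adjusted p = 0.0781). The window of the second annotated start of Tnfsf13b also holds an AP-1 site, which begins 127 bases before that start and lies outside the stretch shown. The promoter of Tnfsf13b is shown with its ISRE core in capitals, since the gene did not fall with Irf8: the 30 bases before the second annotated start, chr8:10006603-10006632, plus strand, GRCm38.p6 (RefSeq).
Tnfsf13b: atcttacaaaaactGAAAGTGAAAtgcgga

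Other Batf3 only genes that fell included Ipcef1 (a cytohesin-binding protein), which stood at 10.1, 7.91 and 10.3 CPM in the wild type and 0.747, 0.775 and 1.66 CPM in Batf3KO (-3.08 ± 0.321). Its Irf8 effect was 1.83 ± 0.529, just short of a call (adjusted p = 0.0542), and it shares sequence with Oprm1. Olfml2b, an extracellular matrix protein, went from 148, 123 and 122 CPM to 25.6, 26.6 and 24.8 CPM (-2.3 ± 0.102). Gatm, the first enzyme of creatine synthesis, was of this class too, as were Cnr2 (the peripheral cannabinoid receptor), Prkcb (protein kinase C beta) and Ncstn (nicastrin, a subunit of gamma-secretase). Bpnt1, a nucleotide phosphatase, rose from 19.3, 19.7 and 19.7 CPM to 74.2, 61.3 and 64.5 CPM (1.82 ± 0.118), and Igsf8, a tetraspanin partner, from 215, 206 and 172 CPM to 686, 630 and 768 CPM (1.87 ± 0.0893). Ly96 (MD-2), the co-receptor of TLR4, rose from 13.8, 17.8 and 19.6 CPM to 29.3, 29.4 and 28.4 CPM. Bpnt1, Gatm, Olfml2b and Tnfsf13b kept the class in all 14 omissions, and leaving out a library of the Batf3 experiment could leave as few as 5 genes in it.

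Batf3 calls were more frequent near Batf3 than elsewhere in the genome. Within 20 Mb of Batf3 on chromosome 1, 19 of 101 sorted genes (18.8%) were called in the Batf3 effect, against 364 of 8664 (4.2%) on other chromosomes. The share was 8.33% within 5 Mb, 15.8% from 5 to 10 Mb, 24.1% from 10 to 20 Mb, 7.23% from 20 to 40 Mb and 3.79% beyond. The same window held 7 of 101 calls (6.93%) in the Irf8 effect, against 7.49% on other chromosomes. Around Irf8 itself the Irf8 effect was called for 8 of 176 genes (4.55%), against 7.58% elsewhere. The labels do not say which strain the Batf3 allele was made in, and whether linked sequence was carried with it was not tested.

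Several of the genes named above lie in that window. Bpnt1 lies 5.766 Mb from Batf3, Slamf8 18.516 Mb, Slamf9 18.622 Mb, Igsf8 18.836 Mb, Ncstn 19.032 Mb and F11r 19.66 Mb, and just beyond it lie Olfml2b at 20.453 Mb and Uap1 at 20.956 Mb, all on the side of lower coordinates. Of the 27 Batf3 only genes, 6 lie on chromosome 1 (22.2%, against 5.73% of sorted genes) and 3 within 20 Mb (11.1%, against 1.1%). Without the genes of the window, an alternative chosen after seeing the data, 20 alike, 21 opposite, 345 Irf8 only and 24 Batf3 only genes were left. Tnfsf13b, Ipcef1, Gatm, Hebp1, Tsc22d3 and Mpeg1 lie on other chromosomes.

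**Figure D3:**
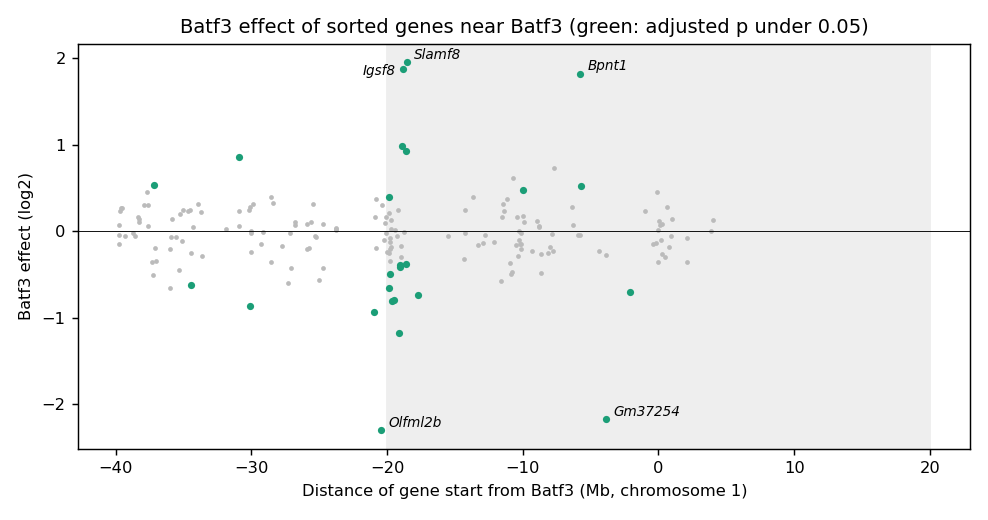
Batf3 effect (log2) of sorted genes against the distance of their start from Batf3 on chromosome 1 (Mb), with green points for an adjusted p under 0.05 and the 20 Mb window in grey. Called genes in both directions, Slamf8 and Igsf8 among them, gather near 19 Mb on the side of lower coordinates.

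Lists of genes known from microglia were counted in both effects. Of all sorted genes, 4.04% were called higher and 3.48% lower with Irf8 loss, and 1.73% higher and 2.65% lower with Batf3 loss. These shares stand beside each list count that follows. Of 35 homeostatic microglial genes, 16 were called lower and 0 higher with Irf8 loss (7.52% of all sorted genes were called), while 4 were called lower and 0 higher with Batf3 loss: Gas6, Tgfbr2, Lpcat2 and P2ry13. The list's median was -1.11 for Irf8 loss and 0 for Batf3 loss, and 14 of its genes were Irf8 only, with P2ry13 moved alike. Not every marker was called: Tmem119, a transmembrane marker of microglia, gave -1.01 ± 0.361 (adjusted p = 0.106) and Cx3cr1, the fractalkine receptor, -0.8 ± 0.31 (adjusted p = 0.135) for Irf8 loss. Their Batf3 effects were 0.07 and -0.01. Spi1 (PU.1, the partner at EICE) gave 0 ± 0.418 and -0.02 ± 0.0925, and Csf1r, the receptor that keeps microglia alive, -0.23 ± 0.434 and -0.09 ± 0.0481.

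Genes of the disease-associated state went both ways. Of 26 sorted from a list of 33, 3 were called higher and 8 lower with Irf8 loss, and 4 higher and 3 lower with Batf3 loss. Over all sorted genes the shares were 4.04% and 3.48% for Irf8 loss and 1.73% and 2.65% for Batf3 loss. Apoe and Csf1 were Irf8 only and higher, Trem2, the lipid receptor of that state, fell with Irf8 loss (-1.93 ± 0.439) without a called difference, and Lpl fell in both. Axl, a receptor for dying cells, rose with Batf3 loss (0.87 ± 0.153) from 50.9, 51.1 and 36.5 CPM to 71.1, 69.9 and 104 CPM. Of 11 chemokines and receptors sorted from a list of 23, 4 were called lower and 0 higher with Irf8 loss and 2 each way with Batf3 loss, with a median difference of -2.14. Ccl3 gave -2.62 ± 0.525 and 0.17 ± 0.171, and Ccl4 moved in opposite directions.

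**Figure D4:**
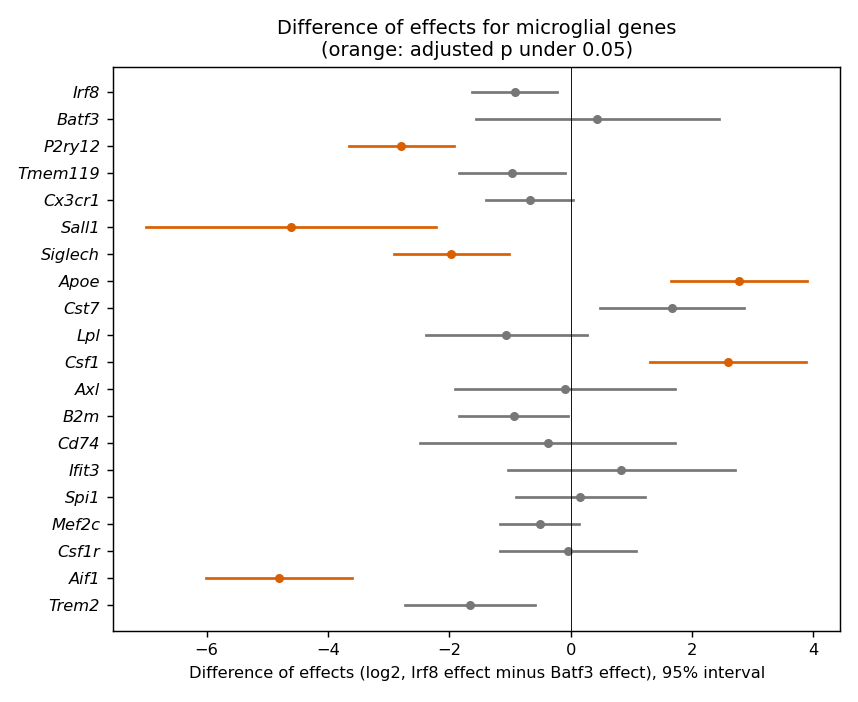
Difference of effects (log2, Irf8 effect minus Batf3 effect) with its 95% interval for Irf8, Batf3 and genes known from microglia, orange where the adjusted p was under 0.05. P2ry12, Sall1, Siglech and Aif1 lie below 0 and Apoe and Csf1 above it, while the interval of Batf3 spans -1.56 to 2.44.

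Of 10 sorted genes of antigen presentation by MHC class II, 3 were called lower with Irf8 loss (H2-DMa, Ctss and Ifi30) and 0 higher, with a median of -1.43 beside 0.07 for Batf3 loss. H2-DMa, a chaperone of peptide loading, stood at 905, 454, 281 and 169 CPM against 45.3, 32.5, 35.9 and 47.3 CPM, and at 480, 459 and 386 CPM against 451, 456 and 492 CPM. Cd74, the invariant chain, gave -0.54 ± 0.755. Of 18 sorted genes of class I presentation 0 were called with Irf8 loss and 1 (Calr) with Batf3 loss, against 7.52% and 4.38% of all sorted genes. Of 33 sorted lysosomal genes, 5 were called lower with Irf8 loss and 3 with Batf3 loss, and Ctsh was lower in both. Complement and phagocytic receptors gave 1 higher and 4 lower of 19 with Irf8 loss: C1qb (-2.69 ± 0.512), C1qc (-2.24 ± 0.515) and Fcgr1 (-2.28 ± 0.485) fell, and Itgb2, an integrin chain, rose (1.95 ± 0.311).

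Interferon-stimulated genes did not move as one. Of 28 sorted, 3 were called higher and 2 lower with Irf8 loss, and 3 higher and 0 lower with Batf3 loss. For all sorted genes these shares were 4.04% and 3.48%, and 1.73% and 2.65%. Ddx58 (RIG-I, a sensor of viral RNA) rose with Irf8 loss (2.37 ± 0.568), and Ifi27l2a fell from 206, 221, 52.6 and 414 CPM to 29.9, 18.2, 19.2 and 26.7 CPM. Of 21 sorted genes of Toll-like receptor signalling, 3 rose and 2 fell with Irf8 loss and 2 rose and 3 fell with Batf3 loss. Tlr13 rose (1.91 ± 0.319 for Irf8 loss) and Tlr12 fell in both. The IRF family list (11 sorted) also counts the IRF2-binding proteins Irf2bp1, Irf2bp2 and Irf2bpl, which are not IRF factors themselves. Among the IRF genes proper only Irf8 was called, lower with Irf8 loss. Irf2bp2, a corepressor, was higher with Irf8 loss (1.28 ± 0.342), and Irf2bpl was lower with Batf3 loss. In the BATF and AP-1 family (13 sorted) Fosl2 (1.96 ± 0.498) and Mafg (1.15 ± 0.304) rose with Irf8 loss, and Batf3 was lower in both losses. Of 19 sorted identity factors, 3 were higher and 1 (Sall1) lower with Irf8 loss, among them Bhlhe41 (2.41 ± 0.522), a basic helix-loop-helix repressor, and 5 were higher with Batf3 loss. Of 6 SLAM-family genes, 2 were lower with Irf8 loss (Slamf8 and Slamf9), while Batf3 loss raised 1 and lowered 2. Of 8 sorted cell-cycle genes, 3 rose with Irf8 loss, the helicase subunits Mcm3, Mcm5 and Mcm6, and 0 were called with Batf3 loss. None of 9 sorted genes listed for type 1 dendritic cells was called in either effect.

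Of 22 genes that respond to tissue dissociation, 16 were sorted. With Irf8 loss 0 of these were called higher and 1 lower (4.04% and 3.48% of all sorted genes), and with Batf3 loss 5 higher and 0 lower (1.73% and 2.65% of all sorted genes). Klf2 rose in Batf3KO from 7.95, 11.4 and 5.67 CPM to 28.3, 27.3 and 33.6 CPM (1.88 ± 0.209), and Rhob and Hsp90ab1 by 0.44 ± 0.0834 and 0.73 ± 0.0979 on the log2 scale. These genes moved with the Batf3 groups beside the other Batf3 effects, and the part of cell handling was not tested.

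Promoter windows, 250 bases before to 50 after the gene start, were found in RefSeq for 7357 of the 9192 sorted genes. Both strands were searched for 5 patterns: EICE, which is GGAA and GAAA with 2 bases between them, the ISRE core, which is GAAA and GAAA with 2 bases between them, the AP-1 site TGANTCA, and a direct and a spaced form of AICE. The direct form is GAAA followed at once by TGANTCA and the spaced form is TTTC and TGANTCA with 4 bases between them, so both also match AP-1. Over all sorted windows the shares with a match were 3.02% for EICE, 3.62% for ISRE, 5.68% for AP-1 and 0.0816% for each form of AICE. Of 99 lower Irf8 only genes with a window, 7.07% held an ISRE core, 0 an EICE and 6.06% an AP-1 site. Of 171 higher ones, 3.51% held an ISRE core, 3.51% an EICE and 8.19% an AP-1 site. Of 17 lower Batf3 only genes with a window, 2 held an ISRE core and 2 an AP-1 site (11.8% each), and 0 an EICE. The 7 higher Batf3 only genes with a window held none of these. No AICE was found in the windows of the alike, same-direction, opposite, Irf8 only and Batf3 only genes. An AICE of the spaced form was present in the window of Cst7, a cystatin of the disease-associated state that was called higher with Irf8 loss (2.34, adjusted p = 0.0103) without a called difference, and is shown in capitals (chr2:150570405-150570423, plus strand, GRCm38.p6, RefSeq).
Cst7: aaaaTGATTCAGCAAGAAA
Cst7 rose from 9.72 to 24 CPM to 56 to 145 CPM with Irf8 loss (2.34 ± 0.447) and gave 0.78 ± 0.219 with Batf3 loss (adjusted p = 0.0714). A match describes these letters in this window and is not evidence of binding.

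Libraries that the sorting did not use gave an independent reading of the Irf8 classes. At 9 months 22.3% of 9189 sorted genes were called in IRF8KO against wild type (11.9% higher and 10.3% lower), and 21.2% in 5xFAD/IRF8KO against 5xFAD. Of the 348 Irf8 only genes, 121 (34.8%) were called at 9 months in their 3-month direction, against 11.5% of all sorted genes, and 40 (11.5%) in the other. Within 5xFAD 200 (57.5%) were called in their 3-month direction, against 16.7% of all sorted genes, and 3 in the other: the same sign, called or not, was seen for 87.6% there and 64.1% at 9 months, against 63.2% and 48.7% of all sorted genes. The lower genes had median effects of -1.7 at 9 months and -2.44 within 5xFAD, and 57 and 78 of 129 called in the same direction. The higher genes had medians of 0.52 and 1.55, and 64 and 122 of 219 were called in the same direction. Neutrophil markers, none of them sorted, took at most 0.000496% of the wild type and 5xFAD libraries and 6.53 to 14.9% of the IRF8KO and 5xFAD/IRF8KO libraries, so they moved with the genotype here as well and their part was not tested. Red blood cell markers took at most 0.00529% of the former and 1.42 to 15.8% of the latter. For monocyte markers the shares were at most 0.000538% and 0.634 to 1.66%, and the part of these cells was not tested either. Reads of the 4 Y-linked genes summed to 275 to 307 CPM in wild type and 4.63 to 149 CPM in IRF8KO at 9 months. They summed to 0 to 156 CPM in 5xFAD and 230 to 269 CPM in 5xFAD/IRF8KO. The label of female thus does not hold for every animal here either. Sex-linked reads differed between the groups compared, and the part of sex was not tested.

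Named members were found on both sides of this split. Aif1, Ly86, P2ry12, H2-DMa and Slc2a5 were called lower in both comparisons at 9 months, with P2ry12 at 6440 to 9590 CPM in wild type and 147 to 367 CPM in IRF8KO. Lbr, Ero1l and Thbs1 were called higher in both, and Apoe rose by 6.43 (adjusted p = 1.43e-06) and by 2.63 within 5xFAD (adjusted p = 0.000162). Others were called the other way at 9 months by edgeR. Tlr13 gave -1.16 (adjusted p = 0.0334) against 1.91 at 3 months, and Pidd1 gave -7.42 (adjusted p = 0.0214). Stab1 gave -1.81 (adjusted p = 0.00155) against 1.79, and Hsp90aa1 gave 2.02 (adjusted p = 0.00367) against -1.15. The Batf3 only genes, read against their Batf3 direction, gave 4 calls in that direction (14.8%) and 5 in the other (18.5%) at 9 months, against 14.2% and 8.07% of all sorted genes. Within 5xFAD they gave 1 (3.7%) and 6 (22.2%), against 11.1% and 10.1%. Tnfsf13b was called in neither (-0.44, adjusted p = 0.512, and 0.44, adjusted p = 0.507).

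**Figure D5:**
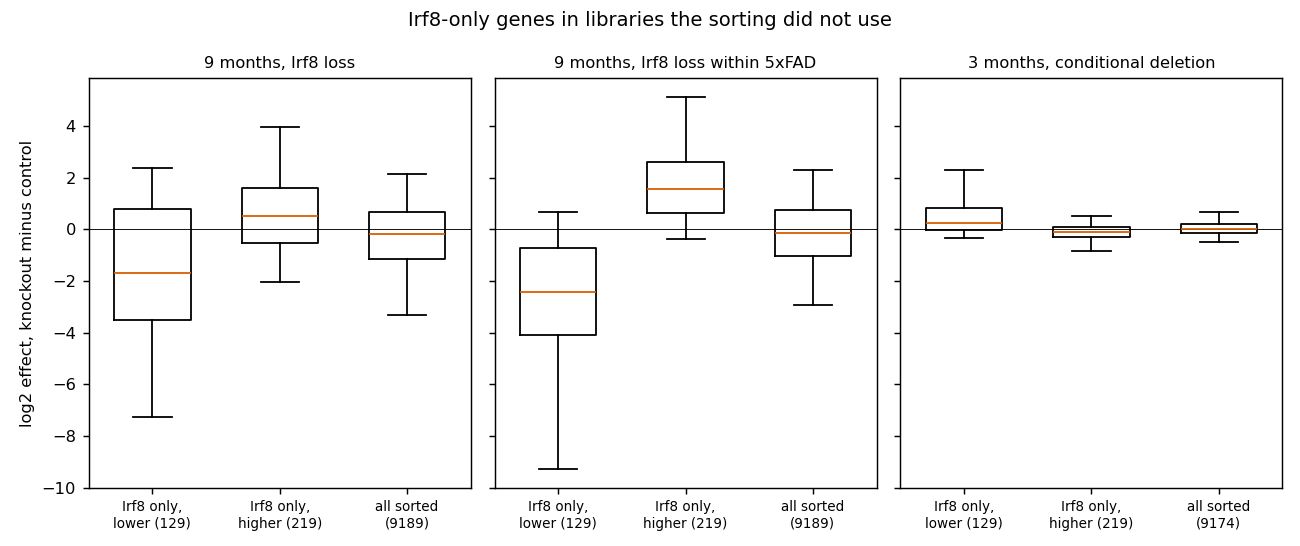
Log2 effects of the Irf8 only genes, lower (129) and higher (219), beside all sorted genes in 3 comparisons that the sorting did not use (boxes are quartiles, whiskers the 5th and 95th percentiles). The lower genes have medians of -1.7 and -2.44 and the higher genes 0.52 and 1.55 in the 2 comparisons at 9 months, while all boxes of the conditional set lie near 0.

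In the conditional set Irf8 was lower in 3 of the 4 libraries labelled Cre, while other genes went the opposite way to IRF8KO. Irf8 stood at 1090, 1240 and 969 CPM in the libraries labelled flox and at 1130, 442, 365 and 519 CPM in those labelled Cre, so the library labelled Cre replicate 1 lay with flox. In Spint1, at 0 in IRF8KO, the libraries labelled flox had 8.72, 4.56 and 3.72 CPM and those labelled Cre 1.68, 187, 154 and 195 CPM. Batf3 likewise stood at 4.3, 4.56 and 1.92 CPM and at 1.32, 34.5, 67.4 and 47.4 CPM, and Apoe at 17500, 10100 and 17400 CPM and at 11700, 986, 1340 and 1620 CPM. These genes separated the libraries into the same sets as Irf8 did, but in the direction opposite to that in IRF8KO, and no direction is drawn from the labels.

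With all 7 libraries, 0 of 15512 genes were called by edgeR in the conditional set (1407 at an unadjusted p under 0.05), and 0% of the sorted genes. DESeq2 called 21 of the Irf8 only genes there, 1 in the 3-month direction and 20 in the other. Without the library labelled Cre replicate 1, an omission planned with the others, 952 of 15264 genes were called, and 745 of 9172 sorted genes (8.12%, 5.49% higher and 2.63% lower). Of the Irf8 only genes 10 were then called in the 3-month direction and 65 in the other. Of the 129 lower ones, 44 were called higher in the libraries labelled Cre and 2 lower.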

How the data were processed

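RNA was measured in 33 libraries of FACS-sorted mouse microglia prepared with SMART-Seq v4 and Nextera XT without molecular identifiers, per the labels' protocols. The authors deposited whole-number read counts per gene. The submitters' processing notes name STAR 2.5.2b, Picard 2.17.11, bcl2fastq, Subread, featureCounts and mm10, without saying which made the counts. The counts that ignore strand were used. Summary lines for unassigned reads stayed out of library sizes, and counts in genes made up 47.3% to 76.4% of the reads of the 14 libraries sorted on. Symbols and coordinates came from GENCODE M21, in which 54079 of 54146 identifiers were found, 52480 with the same version. Libraries of 1 group differed by at least 6.13 times sampling noise (chi-square per gene), so none was the same library read again. This measure cannot tell whether libraries came from the same animal, since separate preparations also differ by more than sampling noise.

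Each effect was fitted with edgeR 4.0.16 in R 4.3.3 (filterByExpr, TMM scaling, quasi-likelihood F test, Benjamini-Hochberg adjustment over all genes in the fit) on the libraries of its own experiment, and the difference of effects on all 14 libraries together. The 9-month comparisons came from 1 fit of 12 libraries and the conditional comparison from 7. Standard errors were derived from the F statistic. CPM values of single libraries are TMM-scaled, while the limit of 5 CPM used unscaled CPM. DESeq2 1.42.0 and limma 3.58.1 (voom) served as alternatives, beside other scaling, filters, models and the omission of each library. The fits were tested on simulated data. Depth limits single values through counting error only, since reads are not independent molecules.

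The genes and lists were chosen with earlier results of these data known. Named genes were Irf8, Batf3 and a fixed set of microglial genes, then, among genes whose libraries did not overlap in each called effect, up to 6 a direction of the alike (by the smaller effect), Irf8 only and Batf3 only classes (by the difference), up to 4 of each other class, and up to 4 called genes a list. Other members are named to account for their class and were chosen after their values were seen. Some genes that the rule names are not reported here.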

Additional observations from a re-analysis of the deposited data

Results flagged for a closer look

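Of 314 pairs of a named gene and a group of 4 libraries, 30 held a library whose gap to its nearest neighbour took up most of the group's range, and chance gives about 1 in 20. In the wild type of the Irf8 experiment, replicate 4 was highest for Bsn (76.1 CPM), Thbs1 (10.1 CPM), Dynll1 (898 CPM) and Sall1 (86.2 CPM) and lowest for Olfml2b (11.1 CPM) and Tmem119 (1130 CPM). Replicate 1 was highest for Tnfrsf17 (57.9 CPM) and Calr (457 CPM), replicate 2 for Ifit3 (49.6 CPM), and replicate 3 for Pidd1 (0.785 CPM) and Mrc1 (19.3 CPM) and lowest for Mpeg1 (53 CPM). In IRF8KO, replicate 2 was highest for Snhg11 (15.5 CPM), Meg3 (33.1 CPM) and Cst7 (145 CPM) and lowest for Mrc1 (181 CPM), replicate 4 was highest for Klk8 (1.51 CPM), Tlr12 (1.68 CPM) and Gm10790 (7.21 CPM), and replicate 3 was lowest for Syne1 (45.7 CPM).

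In the conditional set, the library labelled Cre replicate 1 was highest for Abcg3 (6.46 CPM), Ncapd2 (9.09 CPM), Apoe (11700 CPM) and Cst7 (119 CPM) and lowest for Rassf4 (24.1 CPM) and Slamf8 (0.479 CPM), which is the library that lay with flox in Irf8. Replicate 2 was highest for Hebp1 (156 CPM). Replicate 4 was highest for Cst3 (164000 CPM) and Cd74 (136 CPM) and lowest for Cdk17 (9.35 CPM).

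For 28 pairs of comparisons every knockout library lay on one side of its controls at 3 months and on the other side elsewhere, and these differences were not tested. Neuronal transcripts fell at 3 months and were higher at 9 months and within 5xFAD: Snhg11 by 9.53 and 9.86 (log2), Gria2 by 10.11 and 8.09, Meg3 by 10.74 and 7.94 and Bsn by 4.11 and 3.81. Hsp90aa1, a heat-shock chaperone, also fell at 3 months and gave 2.02 and 2.71, and Lpl gave 1.08 at 9 months. Genes higher at 3 months gave negative effects at 9 months: Pidd1 -7.42, Stab1 -1.81, Irf2bp2 -1.71, Tlr13 -1.16, Bhlhe41 -0.9 and Mafg -0.7. Within 5xFAD, Cst7 gave -1.6 and Dusp6 -0.98. In the conditional set, libraries labelled Cre minus flox gave Mrc1 -2.02, Thbs1 -1.88, Csf1 -1.48, Cst7 -1.43, Stab1 -0.73, Ddx58 -0.72, Itgb2 -0.57, Lbr -0.46 and Cdk17 -0.35.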

How the results depend on the processing

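Of 5141 values of single genes under an alternative, 4390 kept their direction and side of the threshold, 751 lost the call and 0 reversed. Counts moved more, and the causes were not tested. DESeq2 called 1421 genes for Irf8 loss, 692 for Batf3 loss and 1065 for the difference, giving 62 alike, 39 same-direction, 67 opposite, 835 Irf8 only and 45 Batf3 only genes; of the Irf8 only genes it called 5 in the other direction within 5xFAD, and 1 in the 3-month direction and 20 in the other in the conditional set. Voom called 1005 differences and gave 19 same-direction, 38 opposite, 696 Irf8 only and 51 Batf3 only genes. Without a filter on low counts, Batf3 loss had 675 calls, with 69 alike, 22 same-direction, 49 opposite and 10 Batf3 only genes. A model of all 33 libraries, which share 1 estimate of the spread, gave 1910 calls for Irf8 loss, 6 for Batf3 loss, 3 alike, 0 same-direction, 1 opposite and 2 Batf3 only genes, and the 14-library model 2029, 9, 3, 1, 2 and 3. Sorting on the effects alone gave 636 Irf8 only and 348 Batf3 only genes, and limiting genes before the fit gave 715 differences.

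Replicate numbers do not pair the libraries: same-numbered libraries correlated at -0.304 to 0.216. With a replicate block, calls numbered 678 for Irf8 loss, 168 for Batf3 loss and 224 for the difference, and classes held 14 alike, 4 same-direction, 12 opposite, 195 Irf8 only and 7 Batf3 only genes.

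Leaving out 1 library gave 206 (without IRF8KO replicate 1) to 879 (without wild-type replicate 4) calls for Irf8 loss, 166 (without Batf3KO replicate 1) to 491 for Batf3 loss and 127 (without Batf3KO replicate 1) to 929 (without wild-type replicate 4 of the Irf8 experiment) differences. The classes ranged over 11 to 35 alike, 2 to 16 same-direction, 7 to 33 opposite, 112 to 655 Irf8 only and 5 to 47 Batf3 only genes. Irf8 only genes called at 9 months ranged over 99 to 128 in the 3-month direction and 25 to 44 in the other, within 5xFAD over 152 to 207 and 1 to 5, and in the conditional set over 0 to 10 and 0 to 65, the higher ends without Cre replicate 1. Among sorted genes the smallest change called by edgeR was 1 for Irf8 loss and 0.266 for Batf3 loss (log2). Smaller changes went uncalled in those fits, and a limit of detection was not computed.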
